A study of Mus musculus with 12 samples.

Results

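The neurotrophins and their receptors are described here through 6 genes of the mouse hippocampus, out of the 55421 genes for which reads were counted. The genes were listed by name, with earlier results of these data known, and no measured value enters the rule. They are the ligand genes *Bdnf* and *Ntf3*, the Trk receptor genes *Ntrk2* and *Ntrk3*, the p75NTR gene *Ngfr*, and *Sort1*, which encodes the sorting receptor sortilin. All 6 had reads in each of 12 poly(A) RNA-seq libraries and all 6 passed the filter of more than 20 counts in total.

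The study asked whether a brief treatment of mice that lack the fragile X protein FMRP with Nutlin-3, an inhibitor of the ubiquitin ligase MDM2, left lasting changes in the hippocampus. Each library came from the hippocampus of 1 mouse aged 6 months, with 3 libraries in each of 4 groups. WT-Veh mice were wild type and received the vehicle (dimethyl sulfoxide), and WT-Nut3 mice were wild type and received Nutlin-3. KO-Veh mice carried the *Fmr1* knockout (Fmr1-KO in the labels) and received the vehicle, and KO-Nut3 mice carried the knockout and received Nutlin-3. All mice were of the C57BL/6 background by the methods and were injected intraperitoneally 5 times, every other day, from 2 months of age, with 10 mg/kg in the Nutlin-3 groups, so the tissue was taken 4 months after the last dose. The knockout is constitutive, so every cell of a KO mouse carries it, and the tissue is a mixture of all hippocampal cell types. In such bulk samples, fewer cells of a type and less RNA per cell cannot be told apart. Each library held between 17150820 and 20040482 reads on genes.

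The targeted gene followed the labels. *Fmr1* averaged 77.5 ± 2.11 CPM (SD, n = 3) for WT-Veh and 75.8 ± 2.26 for WT-Nut3. The means of KO-Veh and KO-Nut3 were 34.2 ± 2.72 and 31.6 ± 3.71 CPM, where CPM is the read count scaled to a common library size with TMM factors. All 6 KO libraries lay below all 6 WT libraries, with a log2 fold change of -1.22 (SE 0.06).

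One library held the lowest or the highest level of more genes than any other. KO-Nut3 RH6 (libraries carry the animal number of the labels) had the lowest level of the 12 libraries for 21.6% and the highest for 17.0% of the 11909 genes with a mean of at least 5 CPM. Around the group mean, the log2 CPM of these genes spread farther in WT-Nut3 RH9 (SD 0.209) than in KO-Nut3 RH6 (SD 0.195). Of the 6 genes KO-Nut3 RH6 was lowest for *Bdnf*, *Ntrk3* and *Sort1* and highest for *Ngfr*. The summed level of 10 marker genes of thalamus was 413 CPM in this library and between 184 and 212 CPM in the other 11, and that of 6 markers of CA1 pyramidal neurons was 495 CPM against 640 to 748 CPM. Several of the values that move by over 1.5 times without this library are given both ways.

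Neurotrophins are secreted growth factors that are made as proforms and cut to the mature ligand. Mature BDNF acts through the kinase receptor TrkB (*Ntrk2*) and NT-3 (*Ntf3*) through TrkC (*Ntrk3*), while p75NTR (*Ngfr*) binds all mature neurotrophins and, together with sortilin, their proforms. In the hippocampus, BDNF is made mainly by excitatory neurons in response to activity and is known for its part in synaptic plasticity and in the survival of adult-born neurons. TrkB also exists as a truncated form without the kinase, which astrocytes make in large amounts.

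In the GENCODE annotation of GRCm38 (mm10), *Bdnf* (ENSMUSG00000048482) lies at chr2:109674700-109727007 on the plus strand and has 11 annotated transcripts. *Ntf3* (ENSMUSG00000049107) lies at chr6:126101412-126166910 on the minus strand, *Ntrk2* (ENSMUSG00000055254) at chr13:58806569-59133970 on the plus strand, and *Ntrk3* (ENSMUSG00000059146) at chr7:78175959-78738012 on the minus strand. *Ngfr* (ENSMUSG00000000120) lies at chr11:95568818-95587735 on the minus strand and *Sort1* (ENSMUSG00000068747) at chr3:108284082-108361511 on the plus strand. The counting did not use strand, so reads of an antisense gene cannot be told apart from those of its partner where exons overlap. Only Gm45346 within *Bdnf* (896 shared exon bases) and Gm12523 within *Sort1* (338 bases) share exon bases with 1 of the 6 genes, and they had at most 2 and 4 counts in any library.

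A count per gene adds up all transcripts, so it shows neither which start site of *Bdnf* was used nor how *Ntrk2* reads divide between the full-length and the truncated receptor. *Bdnf* is known for its many promoters, of which 7 windows are held in the RefSeq table used here (GRCm38.p6), numbered in order along the gene. The short core of the cAMP response element, CGTCA on either strand, was found in 1 of these 7 windows, window 3 at chr2:109692186-109692435, 35 bases before the start. The same core is held by 17.8% of all 32851 windows of the table, and the match is a description of the letters, not of a bound site. Only exact matches were sought, so a variant of the element would be missed. Window 3 is shown with the core in capitals, beside window 1 at chr2:109674450-109674699, which holds no exact match. The counts of *Bdnf* below add up reads from both starts. Both are on the plus strand.
Bdnf window 3: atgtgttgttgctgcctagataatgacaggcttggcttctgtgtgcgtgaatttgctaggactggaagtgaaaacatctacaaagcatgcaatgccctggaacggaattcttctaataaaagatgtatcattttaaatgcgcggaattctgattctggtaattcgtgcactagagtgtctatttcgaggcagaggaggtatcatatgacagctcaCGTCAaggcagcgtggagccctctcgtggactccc
Bdnf window 1: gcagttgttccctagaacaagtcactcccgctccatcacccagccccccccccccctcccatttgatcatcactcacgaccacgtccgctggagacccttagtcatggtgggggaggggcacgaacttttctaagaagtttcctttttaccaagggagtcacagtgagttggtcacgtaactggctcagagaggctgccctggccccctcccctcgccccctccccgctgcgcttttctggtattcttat
The 2 windows of *Ntf3* and the single windows of *Ntrk2* and *Ngfr* held no CGTCA on either strand.

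Levels of different genes are compared per length, as CPM per kb of annotated exon. Sortilin was the most abundant at 98.4 ± 7.29 CPM per kb (SD over 12 libraries), followed by *Ntrk2* at 33.3 ± 1.21, *Ntrk3* at 10.3 ± 0.84 and *Bdnf* at 7.49 ± 0.77. *Ntf3* was at 3.35 ± 0.42 CPM per kb and *Ngfr* at 0.733 ± 0.242. *Ntf5*, the gene of the ligand NT-4 outside the 6, was at 0.146 CPM per kb. *Sort1*, *Ntrk2* and *Ntrk3* had ranges that did not meet. *Ntrk3* and *Bdnf* had ranges that overlapped, although *Ntrk3* was higher within each of the 12 libraries. Annotated exons include long untranslated regions that may not be used in this tissue (30170 bases for *Ntrk3* and 19292 for *Ntrk2*), which lowers their level per length.

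**Figure D1:**
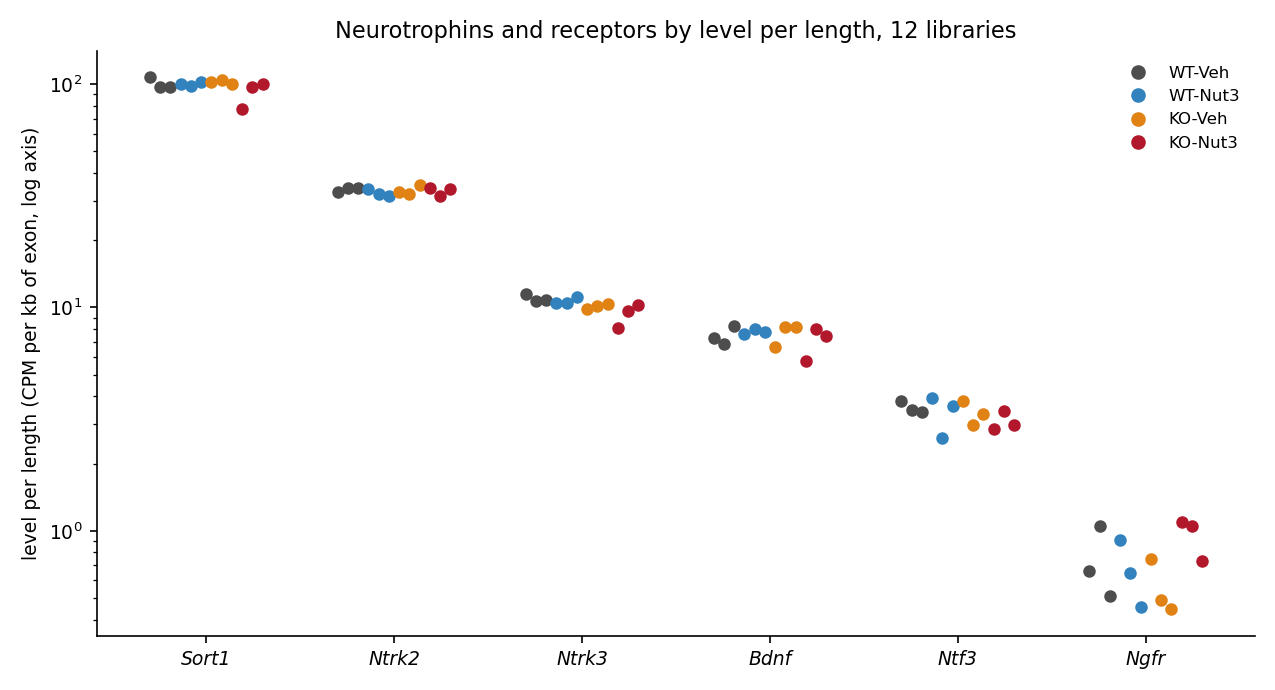
Level per length (CPM per kb of annotated exon, log axis) of the 6 genes in the 12 libraries, each point 1 library coloured by group. *Sort1* leads at a mean of 98.4 and *Ngfr* is the lowest at 0.733.

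The spread over libraries differed between the genes. The coefficient of variation of the CPM over the 12 libraries was 3.64% for *Ntrk2*, 7.41% for *Sort1*, 8.18% for *Ntrk3*, 10.3% for *Bdnf*, 12.6% for *Ntf3* and 33.0% for *Ngfr*. *Ntrk2*, with 10625 to 12915 counts per library, was thus the steadiest over all 12 libraries, while *Sort1* varied less without KO-Nut3 RH6. *Ngfr*, with 27 to 69 counts, was the most variable. Counting error alone would give 0.919% for *Ntrk2*, 0.854% for *Sort1*, 1.32% for *Ntrk3*, 3.41% for *Bdnf*, 9.72% for *Ntf3* and 14.6% for *Ngfr*. The spread between these animals was above that for all 6 genes, and nearest to it for *Ntf3*.

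None of the 6 genes passed the threshold of an adjusted *P* of 0.05 in any of the 8 comparisons with edgeR's quasi-likelihood test. Among the 48 results, 4 had an unadjusted *P* under 0.05 with edgeR, 4 with DESeq2 and 5 with limma-voom, and neither DESeq2 nor limma-voom called any. The 4 of edgeR were *Ngfr* for KO-Nut3 against KO-Veh (7.6% of all genes tested had such a *P*) and *Ntrk3* for KO-Nut3 against WT-Nut3 (4.87%), for KO-Nut3 against WT-Veh (9.17%) and for all KO against all WT (8.16%). The background was low as well. Of the 22592 genes tested, 0.0177% were called for KO-Veh against WT-Veh, 0.199% for KO-Nut3 against KO-Veh, 0% for WT-Nut3 against WT-Veh, and 0.00443% for KO-Nut3 against WT-Nut3, for KO-Nut3 against WT-Veh and for all KO against all WT. No gene was called for the interaction of genotype and treatment or for all Nutlin-3 against all vehicle. The unadjusted *P* was under 0.05 for 3.17% of the genes tested for WT-Nut3 against WT-Veh, for 4.17% for the interaction and for 7.29% for all Nutlin-3 against all vehicle. DESeq2 called 0, 1 and 79 genes in these, and limma-voom 0 in each.

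**Figure D2:**
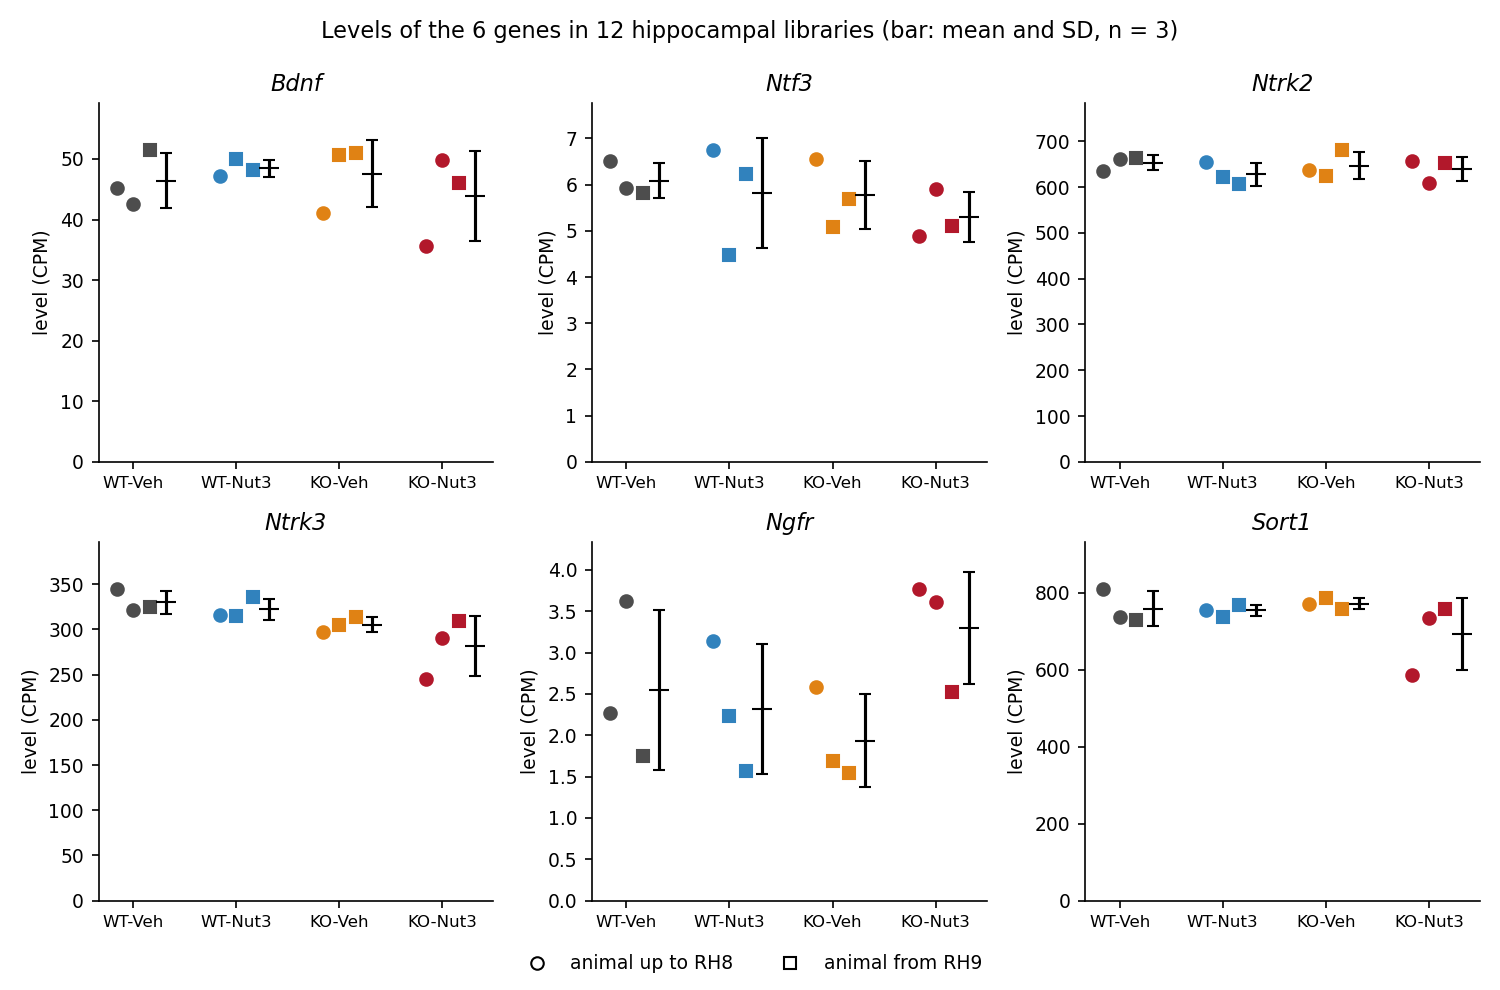
Level in CPM of the 6 genes in the 12 libraries by group, with the mean and SD of 3 libraries beside the points and the axis starting at 0. Circles are animals up to RH8 and squares animals from RH9; *Ntrk3* is lower in all 6 KO than in all 6 WT libraries, and circles lie high for *Ngfr*.

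*Bdnf*, the main neurotrophin of the hippocampus, was at 45.3, 42.6 and 51.5 CPM in the WT-Veh animals RH2, RH5 and RH15 and at 47.2, 50.0 and 48.2 CPM in WT-Nut3 (RH1, RH9 and RH14). It was at 41.1, 50.6 and 51.0 CPM in KO-Veh (RH7, RH10 and RH16) and at 35.6, 49.9 and 46.1 CPM in KO-Nut3 (RH6, RH8 and RH13). The 4 groups overlapped, and the low value of RH6 stood alone. The log2 fold change was 0.03 (95% interval -0.17 to 0.23) for KO-Veh against WT-Veh, 0.06 (-0.10 to 0.23) for WT-Nut3 against WT-Veh and -0.12 (-0.41 to 0.17) for KO-Nut3 against KO-Veh. The last became 0.01 without KO-Nut3 RH6. A difference in *Bdnf* between KO-Veh and WT-Veh beyond 0.891-fold or 1.18-fold lay outside the interval.

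*Ntf3*, the gene of NT-3, was at 6.51, 5.94 and 5.82 CPM in the WT-Veh libraries and 6.75, 4.47 and 6.22 CPM in the WT-Nut3 libraries. The KO-Veh libraries had 6.56, 5.07 and 5.70 CPM and the KO-Nut3 libraries 4.88, 5.90 and 5.11 CPM. Its groups overlapped in every comparison. The lowest mean, 5.30 ± 0.54 CPM (SD, n = 3) in KO-Nut3, stood beside 6.09 ± 0.37 CPM in WT-Veh, with a log2 fold change of -0.20 (SE 0.16, adjusted *P* = 0.751). The 3 libraries with the highest sums of choroid plexus markers (6745 CPM in WT-Nut3 RH9, 5201 in KO-Nut3 RH6 and 7199 in KO-Nut3 RH13, and 198 to 708 CPM in the others) held the lowest, the second and the fourth lowest *Ntf3* levels, and the part of choroid plexus tissue in this was not tested.

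*Ntrk2*, the TrkB gene, was the least variable of the 6 over all 12 libraries, while *Sort1* varied less without KO-Nut3 RH6. *Ntrk2* was at 634, 662 and 663 CPM in the WT-Veh libraries and 655, 622 and 607 CPM in the WT-Nut3 libraries. The KO-Veh libraries had 637, 623 and 681 CPM and the KO-Nut3 libraries 657, 609 and 654 CPM. All groups overlapped, and the log2 fold change lay between -0.05 and 0.02 in the pairwise comparisons. Its interval for all KO against all WT, -0.08 to 0.09, corresponds to 0.948-fold to 1.06-fold. This is the narrowest interval of the 6 genes in that comparison, over both forms of the receptor together.

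*Ntrk3*, the TrkC gene, was at 345, 321 and 325 CPM in WT-Veh and at 316, 315 and 335 CPM in WT-Nut3. It was at 297, 305 and 313 CPM in KO-Veh and at 245, 290 and 310 CPM in KO-Nut3. The highest KO library (KO-Veh RH16, 313.33 CPM) lay just below the lowest WT library (WT-Nut3 RH9, 315.16 CPM), so the genotypes did not overlap. Over all 12 libraries *Ntrk3* was lower in KO by a log2 fold change of -0.15 (SE 0.05, 95% interval -0.26 to -0.05), or 0.899-fold, with an unadjusted *P* of 0.00863 and an adjusted *P* of 0.446. Of all genes tested, 0.359% were lower in all 6 KO than in all 6 WT libraries and 8.16% had an unadjusted *P* under 0.05 in this comparison. The summed markers of CA1 pyramidal neurons were at 668 to 748 CPM in the WT and 495 to 693 CPM in the KO libraries. Their ranges overlapped, and their r with *Ntrk3* was 0.877 over the 12 libraries, of which KO-Nut3 RH6 was lowest in both. The part of CA1 neurons in the *Ntrk3* difference was not tested.

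The same direction held for *Ntrk3* under each treatment. Without overlap of the groups, the log2 fold change was -0.11 (SE 0.05, adjusted *P* = 0.706) for KO-Veh against WT-Veh and -0.20 (SE 0.09, adjusted *P* = 0.928) for KO-Nut3 against WT-Nut3. Of all genes, 6.46% and 5.35% were lower without overlap in these comparisons of 3 against 3 libraries. Leaving out KO-Nut3 RH6 moved the second value to -0.11 and the value over all 12 libraries to -0.11. Leaving out each of the other 11 libraries gave values between -0.18 and -0.14 over the rest. Between treatments the groups overlapped, with -0.03 (SE 0.06) for WT-Nut3 against WT-Veh and -0.12 (SE 0.08) for KO-Nut3 against KO-Veh, which became -0.03 without RH6.

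*Ngfr* encodes p75NTR, the receptor shared by all neurotrophins, and was the least abundant of the 6. Its levels were 2.27, 3.62 and 1.75 CPM in the WT-Veh libraries and 3.14, 2.24 and 1.57 CPM in the WT-Nut3 libraries. The KO-Veh libraries had 2.58, 1.69 and 1.54 CPM and the KO-Nut3 libraries 3.77, 3.61 and 2.53 CPM. KO-Nut3 thus held the highest library, and its lowest library lay just below the highest of KO-Veh, so the groups overlapped. The log2 fold change of 0.76 (SE 0.27, 95% interval 0.15 to 1.37) for KO-Nut3 against KO-Veh, 1.69-fold, was the largest of the 6 genes in any comparison of a pair of groups, with an unadjusted *P* of 0.0200 and an adjusted *P* of 0.512. Its sign did not change when each library was left out (0.62 to 1.02). For KO-Veh against WT-Veh the value was -0.39 (SE 0.31, adjusted *P* = 0.823) and moved to -0.04 without WT-Veh RH5 and to -0.65 without KO-Veh RH7. In wild-type mice Nutlin-3 gave -0.13 (SE 0.32), and the test of the difference between the genotypes gave 0.90 (SE 0.45, adjusted *P* = 0.994). It was 0.55 without WT-Veh RH5.

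The levels of *Ngfr* were also compared by animal number, a split chosen after the values were seen. The 6 animals up to RH8 ranged from 2.27 to 3.77 CPM with a median of 3.38, and the 6 animals from RH9 from 1.54 to 2.53 CPM with a median of 1.72. The ranges overlapped, and the difference had an adjusted *P* of 0.204 with edgeR. The labels do not say what an animal number stands for, but the share of reads mapped to several places was 3.07% to 3.22% in the first 6 libraries and 3.33% to 3.55% in the others. Among animals up to RH8, KO-Nut3 was at 3.77 and 3.61 CPM and the KO-Veh animal at 2.58 CPM. Among animals from RH9, the KO-Nut3 animal was at 2.53 CPM and KO-Veh at 1.69 and 1.54 CPM. KO-Nut3 was higher within both ranges of numbers, and with the range as a term in the fit the log2 fold change was 0.57 (adjusted *P* = 0.732) and the difference between the genotypes 0.47.

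*Sort1* encodes sortilin, which sorts proneurotrophins inside the cell and forms a receptor with p75NTR. Its levels were 810, 737 and 731 CPM in the WT-Veh libraries and 756, 738 and 769 CPM in the WT-Nut3 libraries. The KO-Veh libraries had 771, 786 and 757 CPM and the KO-Nut3 libraries 586, 733 and 759 CPM. Apart from RH6 all libraries lay between 731 and 810 CPM, and the groups overlapped. The log2 fold change for KO-Nut3 against KO-Veh was -0.16 (SE 0.09, adjusted *P* = 0.742) with RH6 and -0.05 without it. For KO-Veh against WT-Veh it was 0.02 (95% interval -0.10 to 0.14).

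**Figure D3:**
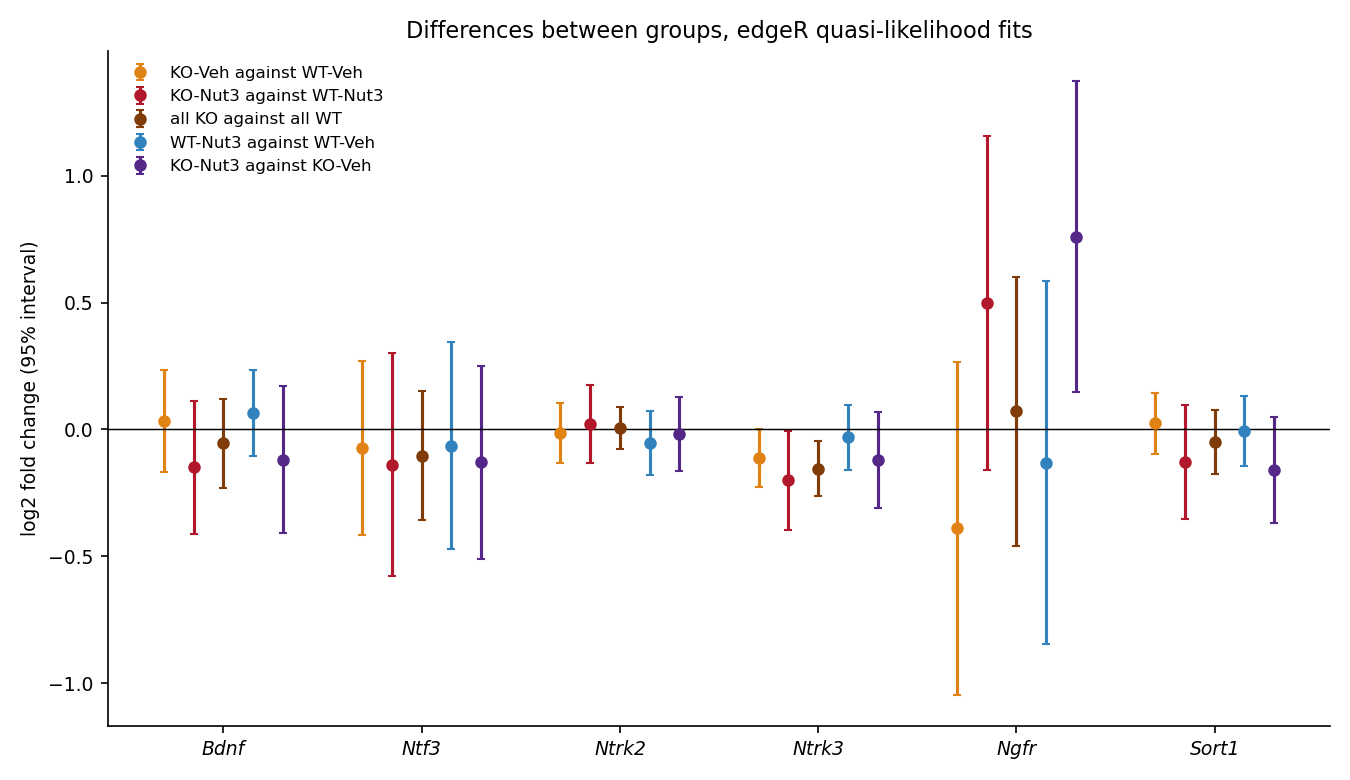
Log2 fold change with 95% interval for the 6 genes in 5 comparisons (edgeR quasi-likelihood fits, 6 libraries for a pair of groups, all KO against all WT on 12). The intervals of *Ntrk3* for all KO against all WT (-0.26 to -0.05) and for KO-Nut3 against WT-Nut3 and of *Ngfr* for KO-Nut3 against KO-Veh (0.15 to 1.37) leave out 0, and none of the adjusted *P*-values is under 0.05.

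Markers of other cell types were measured beside these genes. In KO-Nut3 RH6 the genes of the thalamus list with the highest level of the 12 libraries were *Slc17a6* (113 CPM, and 8.4 to 22.2 in the others), *Tcf7l2* (32.7 CPM, 4.7 to 7.3), *Rora* (77.3 CPM, 36.8 to 48.3), *Calb2* (52.6 CPM, 18.3 to 30.7) and *Lef1* (11.6 CPM, 2.4 to 4.3). The defining marker *Gbx2* was at or below 0.1 CPM and *Ntng1*, the most abundant of the list, was at 51.7 CPM against 40.9 to 53.0. The lowest *Bdnf*, *Ntrk3* and *Sort1* levels were in this library, and the part of tissue makeup in them was not tested.

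*Ngfr* is known to be made by cells of vessel walls and meninges and by cholinergic neurons of the septum. The sum of the 9 mural markers was highest in KO-Nut3 RH8 (319 CPM) and WT-Veh RH5 (297 CPM), the libraries with the third and the second highest *Ngfr* levels, and to 198 to 247 CPM in the other 10. The 12 markers of meningeal fibroblasts were highest in the same pair (330 and 260 CPM) and next in KO-Nut3 RH6 (185 CPM), which had the highest *Ngfr*; the others had 102 to 163 CPM. The 4 defining mural markers, *Pdgfrb*, *Rgs5*, *Kcnj8* and *Myh11*, had reads in all 12 libraries. *Rgs5*, the most abundant of the list, was at 76.7 to 106 CPM, and *Myh11* of smooth muscle was highest in WT-Veh RH5 and KO-Nut3 RH8 (24.4 and 24.2 CPM, and 5.70 to 16.3 in the others). The defining septal markers *Chat*, *Slc5a7*, *Slc18a3* and *Lhx8* were each below 1 CPM in every library. The part of vessel and meningeal cells in the *Ngfr* levels was not tested.

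**Figure D4:**
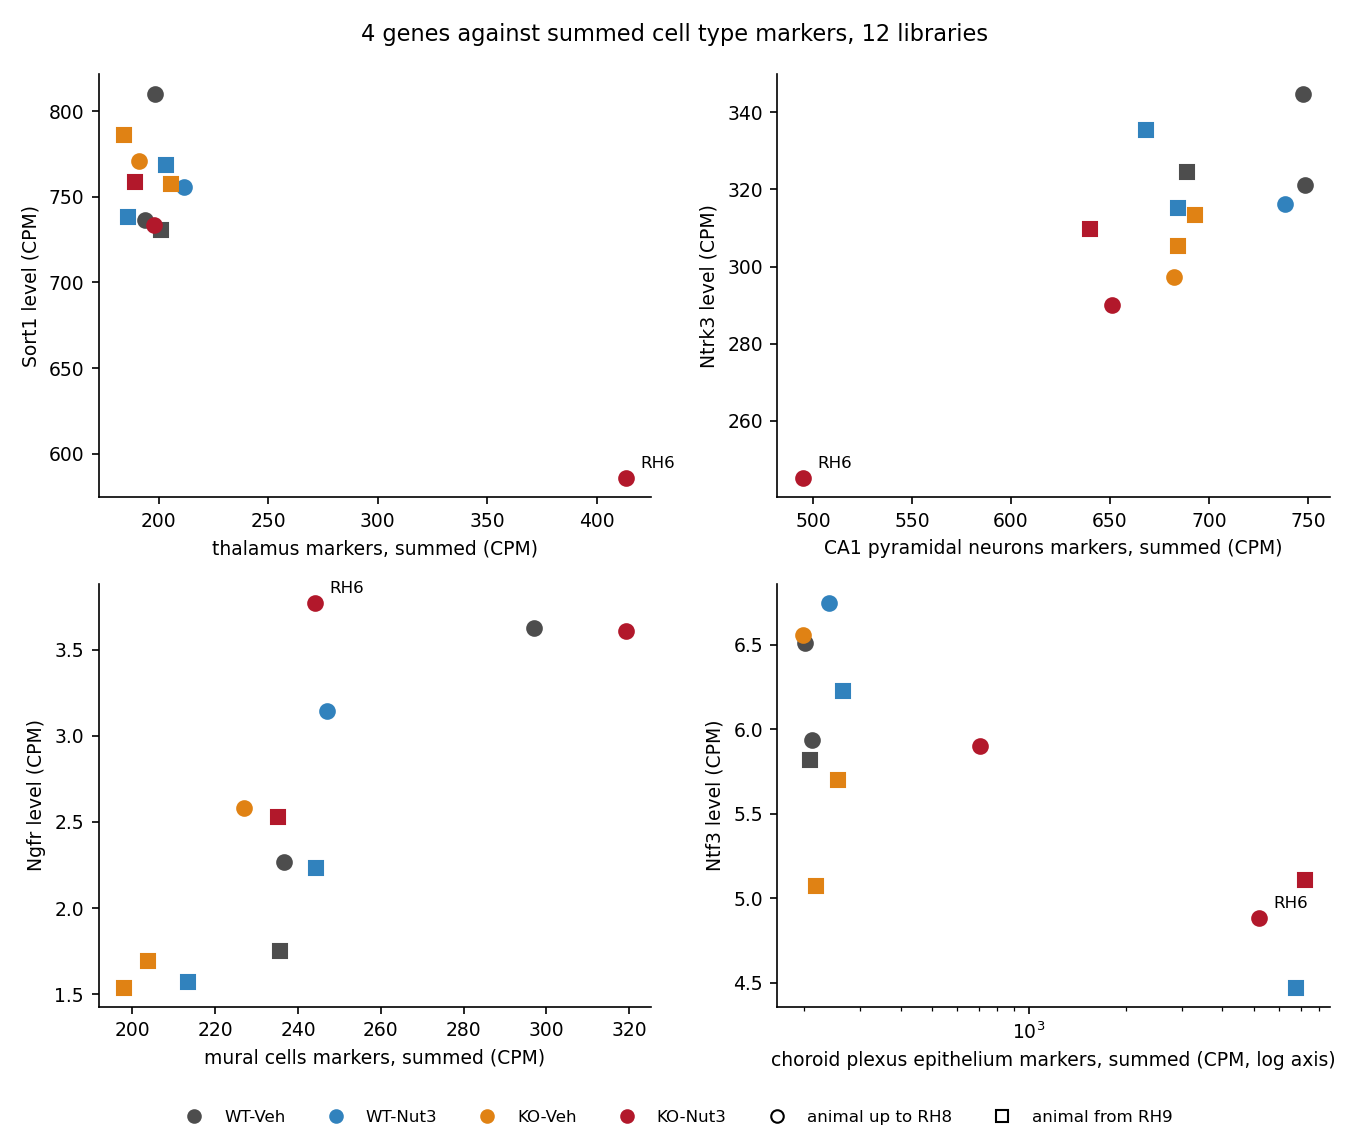
*Sort1*, *Ntrk3*, *Ngfr* and *Ntf3* levels (CPM) against the summed CPM of the markers of thalamus, CA1 pyramidal neurons, mural cells and choroid plexus epithelium (log axis for the last), each point 1 library. KO-Nut3 RH6 lies alone at a thalamus sum of 413 CPM and a CA1 sum of 495 CPM, and *Ngfr* is high in the 2 libraries with mural sums of 297 and 319 CPM.

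The rest of the pathway was taken from 7 lists of 113 genes, of which 112 were tested. With edgeR and the count filter none of the 112 passed the threshold in any of the 8 comparisons, while without the filter genes induced by BDNF were called, as given below. An unadjusted *P* under 0.05 was found for 20 of 112 for KO-Veh against WT-Veh (7.2% of all genes tested), for 15 for KO-Nut3 against KO-Veh (7.6%) and for 3 for WT-Nut3 against WT-Veh (3.17%). DESeq2 called 6 results over the 8 comparisons and limma-voom none. The DESeq2 calls were *Arc* and *Junb* for KO-Nut3 against KO-Veh (where DESeq2 called 1.08% of all genes), *Lingo1* for KO-Nut3 against WT-Veh (0.983%), and *Lingo1*, *Slitrk1* and *Rapgef1* for all KO against all WT (0.19%).

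These last 3 genes, named because DESeq2 called them, belong to receptor signalling and had the same sign as *Ntrk3*. *Lingo1*, a partner of p75NTR in a complex that restrains axon growth, was at 261 to 312 CPM in the WT and 206 to 282 CPM in the KO libraries, a log2 fold change of -0.23 (SE 0.06, edgeR adjusted *P* = 0.417, DESeq2 adjusted *P* = 0.0484). *Slitrk1*, a membrane protein with leucine-rich repeats, was at 81.2 to 100 CPM in WT and 75.4 to 80.5 CPM in KO, with -0.21 (SE 0.05, edgeR adjusted *P* = 0.417, DESeq2 adjusted *P* = 0.0443). *Rapgef1*, an exchange factor for the small GTPase Rap1, was at 134 to 143 CPM in WT and 114 to 129 CPM in KO, with -0.15 (SE 0.04, edgeR adjusted *P* = 0.417, DESeq2 adjusted *P* = 0.0445). The genotypes did not overlap for *Slitrk1* and *Rapgef1* (0.359% of all genes were lower in this way) and overlapped for *Lingo1*. Without KO-Nut3 RH6 the log2 fold changes of *Lingo1*, *Slitrk1* and *Rapgef1* were -0.20, -0.21 and -0.13. In the pooled comparison of KO with WT, 14 of the 20 Trk adaptors and modulators had a log2 fold change below 0 (48.1% of all genes tested) and 6 above. Their median was -0.06 (0.01 over all genes tested). This list, too, was chosen with earlier results of these data known.

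The lists of processing, p75NTR partners, relay and *Bdnf* regulators are given beside these. For KO-Veh against WT-Veh the median log2 fold change was 0.00 for the 13 genes of proneurotrophin processing and sorting, 0.01 for the 15 p75NTR partners, -0.01 for the 24 genes of the ERK, PI3K and CREB relay and -0.02 for the 16 regulators of *Bdnf* transcription. For KO-Nut3 against KO-Veh 49.2% of all genes were below 0, with a median of 0.00. The medians of the same lists, in the same order, were -0.12, -0.03, -0.05 and -0.04, with 11 of 13, 10 of 15, 17 of 24 and 12 of 16 genes lower. Without KO-Nut3 RH6 these medians were -0.06, -0.04, -0.01 and -0.03, with 11, 9, 14 and 10 genes lower. Of the 13 processing and sorting genes, 23.1% had an unadjusted *P* under 0.05 for KO-Veh against WT-Veh (7.2% of all genes) and 30.8% for all KO against all WT (8.16%), and the share was 38.5% for KO-Nut3 against WT-Veh (9.17%). By treatment it was 30.8% for all Nutlin-3 against all vehicle (7.29%), or 4 of 13 genes, and 2 of 13 without KO-Nut3 RH6. The share was 15.4% for WT-Nut3 against WT-Veh (3.17%) and 0% for KO-Nut3 against KO-Veh (7.6%). For KO-Nut3 against WT-Nut3 it was 7.69% (4.87%). *Nfatc4*, a calcium-dependent transcription factor that acts on *Bdnf*, had the highest log2 fold change of the listed genes with a mean of at least 1 CPM for KO-Nut3 against KO-Veh, at 3.05, 3.09 and 1.87 CPM in KO-Nut3 and 1.76, 1.24 and 0.63 CPM in KO-Veh (1.13, SE 0.37, adjusted *P* = 0.431), above KO-Veh without overlap as were 7.85% of all genes. For KO-Veh against WT-Veh, which shares the KO-Veh libraries, it was the lowest of these genes (-0.62, SE 0.37, adjusted *P* = 0.766), and that value was -0.30 without WT-Veh RH5 and -0.99 without KO-Veh RH7. In wild-type mice *Mmp9*, a protease that can cleave proBDNF, was at 1.79, 2.57 and 2.88 CPM in WT-Veh and 1.57, 1.29 and 0.953 CPM in WT-Nut3 (-0.92, SE 0.28, adjusted *P* = 0.998), without overlap of the groups as for 3.92% of all genes.

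The 22 genes listed as induced by BDNF hold immediate early genes, which neuronal activity also induces, and others such as *Npy*, *Sst* and *Cort*. *Npy* and *Sst* are also in the list of interneuron markers. The 22 genes had the median farthest from 0 of the lists with over 3 genes, both for KO-Veh against WT-Veh and for KO-Nut3 against KO-Veh. The list was chosen with earlier results of these data known, so its counts are a description. For KO-Veh against WT-Veh 21 of 22 had a log2 fold change above 0 (48.9% of all genes tested), with a median of 0.24 (0.00 over all genes) and 7 with an unadjusted *P* under 0.05. These 7 were *Npy*, *Dusp6*, *Arc*, *Cort*, *Sst*, *Homer1* and *Junb*. The edgeR *P* of *Fos*, *Fosb*, *Egr1*, *Egr2*, *Egr3* and *Nr4a1* was above 0.05 in this comparison. For KO-Nut3 against KO-Veh 20 of 22 were below 0 (49.2% of all genes) with a median of -0.28 and 9 under 0.05. No gene of the list passed with edgeR and the count filter in either. Without the filter edgeR called 7 of the 22 for KO-Veh against WT-Veh, 6 for KO-Nut3 against KO-Veh and 8 for the interaction. It then called 272, 544 and 291 genes in all, against 4, 45 and 0 with the filter (0.0177%, 0.199% and 0% of the genes tested). The calls thus rose over the whole series without the filter, and not only in this list. Both pairwise comparisons share the KO-Veh libraries, so the opposite signs are not independent of each other. For WT-Nut3 against WT-Veh 16 of 22 were above 0 (50.1% of all genes), with a median of 0.06.

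*Arc*, which regulates synaptic receptors, was at 91.7, 153 and 207 CPM in the WT-Veh libraries and 158, 163 and 184 CPM in the WT-Nut3 libraries. The KO-Veh libraries had 201, 232 and 270 CPM and the KO-Nut3 libraries 155, 187 and 123 CPM. KO-Nut3 lay below KO-Veh without overlap (5.44% of all genes tested were lower in this way), while WT-Veh overlapped both. The log2 fold change was 0.64 (SE 0.20, adjusted *P* = 0.608) for KO-Veh against WT-Veh and -0.60 (SE 0.15, edgeR adjusted *P* = 0.220, DESeq2 adjusted *P* = 0.00297) for KO-Nut3 against KO-Veh. *Junb*, a subunit of the AP-1 transcription factor, had a log2 fold change of -0.50 in the second comparison (SE 0.12, edgeR adjusted *P* = 0.185, DESeq2 adjusted *P* = 0.00781). *Npas4*, an activity-dependent factor that acts on *Bdnf*, was at 14.3, 21.8 and 30.0 CPM in KO-Veh and 13.9, 13.8 and 7.80 CPM in KO-Nut3 (-0.90, SE 0.28, adjusted *P* = 0.392), and the log2 fold changes of *Egr2* and *Fosb* were -0.96 (SE 0.40, adjusted *P* = 0.626) and -0.73 (SE 0.30, adjusted *P* = 0.624). *Egr2* moved to -0.40 without KO-Veh RH16, and *Fosb* lay between -1.19 without KO-Nut3 RH8 and -0.47 without KO-Nut3 RH13.

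The shift of the list moved when single libraries were left out. WT-Veh RH2 had the lowest *Arc* level of the 12 and KO-Veh RH16 the highest. For KO-Veh against WT-Veh the median of the 22 genes moved from 0.24 to 0.10 without WT-Veh RH2, to 0.16 without KO-Veh RH16 and to 0.36 without WT-Veh RH15, with 18 to 21 genes above 0 when each library was left out. When the fit included the range of animal numbers it was 0.15, with 19 of 22 above 0. *Arc* itself moved from 0.64 to 0.38 without WT-Veh RH2. For KO-Nut3 against KO-Veh the median moved from -0.28 to -0.16 without KO-Nut3 RH6 and to -0.46 without KO-Nut3 RH8, with 18 to 21 genes below 0. The 9 genes with an unadjusted edgeR *P* under 0.05 in this comparison became 2 without KO-Veh RH16 and 15 without KO-Nut3 RH8. The 7 such genes for KO-Veh against WT-Veh became 4 without WT-Veh RH2 and 11 without WT-Veh RH15. Without KO-Nut3 RH8, where edgeR called 266 genes in all (1.18%), 3 genes of the list passed, *Arc*, *Fosb* and *Junb* (adjusted *P* = 0.0334, 0.0473 and 0.0250). The wild-type comparison turned to 8 of 22 above 0 and a median of -0.08 without WT-Veh RH2. *Bdnf* itself, as given above, overlapped between all groups.

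**Figure D5:**
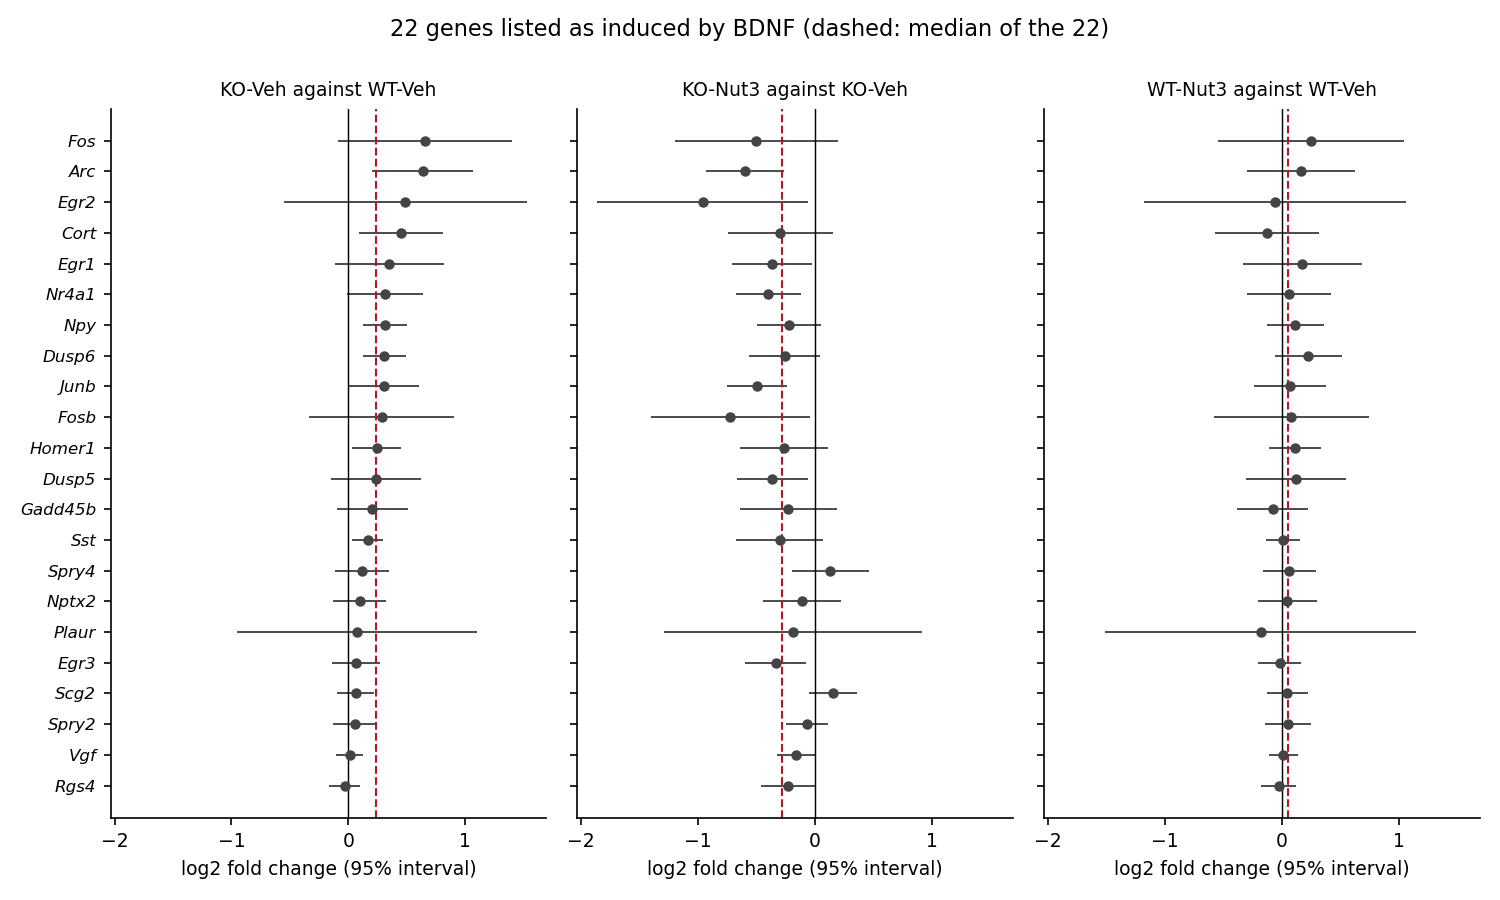
Log2 fold change with 95% interval (edgeR) of the 22 genes listed as induced by BDNF in 3 comparisons, with the median of the 22 dashed. The medians are 0.24, -0.28 and 0.06; the first and the second comparison share the KO-Veh libraries.

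Genes with the pattern most like each of the 6 were sought among the 11909 genes with a mean of at least 5 CPM, by Pearson's r of the log2 CPM over the 12 libraries. These libraries share tissue and groups, and the r without KO-Nut3 RH6 is given beside it. *Ntrk3* was followed by *Agtpbp1* (r = 0.979, 0.935 without RH6), *Srgap3* (0.975, 0.925) and *Sez6l* (0.974, 0.919), and *Sort1* by *Lrp11* (0.988, 0.916), *Psd* (0.987, 0.904) and *Enc1* (0.981, 0.902). For *Ntrk3* 534 and for *Sort1* 724 genes had an r above 0.8, against 57 for *Bdnf*, 49 for *Ngfr*, 30 for *Ntf3* and 5 for *Ntrk2*. Without RH6 the numbers were 102 for *Ntrk3*, 55 for *Sort1*, 17 for *Bdnf*, 45 for *Ngfr*, 47 for *Ntf3* and 14 for *Ntrk2*. The genes most like *Bdnf* were *Cttnbp2* (0.915, 0.797), *Inhba* (0.905, 0.814) and *Uros* (0.883, 0.740). *Ngfr* was most like *Ece1* (0.930, 0.917), *Lamb2* (0.916, 0.897) and *Scarf2* (0.904, 0.882), *Ntf3* like *Map7d1* (0.916, 0.905), *Inpp4a* (0.896, 0.905) and *Fyn* (0.887, 0.878), and *Ntrk2* like *Reln* (0.859, 0.913), *Fam213a* (0.837, 0.847) and *Atp13a4* (0.827, 0.819).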

How the data were processed

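Poly(A) RNA-seq libraries of 12 hippocampi were used. The authors mapped the reads to mm10 with STAR (version not given in the sources used here) and deposited raw counts of reads per gene, without normalization. The column over both strands was read, and the count table of the whole series was not used. The sample labels give single reads and an earlier instrument, the methods paired-end NovaSeq reads. Total reads were 21772933 to 25498894 per library. The reads that fell on no gene stayed out of library sizes. Groups come from the labels, which number the animals.

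Counts were normalized by TMM and tested with the quasi-likelihood test of edgeR 4.0.16 (R 4.3.3), two-sided, over the 22592 genes whose counts summed to more than 20, with Benjamini-Hochberg adjusted *P* under 0.05 as the threshold. Each pair of groups was fitted on its 6 libraries, and the interaction and the pooled contrasts on all 12. The standard error is the log2 fold change divided by the root of *F*, and the 95% intervals use its degrees of freedom. Alternatives were DESeq2 1.42.0, limma-voom (limma 3.58.1), DESeq2 size factors, filterByExpr, no filter, all 12 libraries in one fit, a term for animal numbers up to RH8 or from RH9, and leaving out each library. The fits were tested on simulated counts. The 6 genes, 7 pathway lists and 17 marker lists were chosen with earlier results of these data known. The naming rule took the 6 genes, *Fmr1*, the 3 highest and 3 lowest listed genes with a mean of at least 1 CPM in a comparison (named in part), the 3 genes most like each member, and the most abundant and defining markers of a list. Listed genes called by DESeq2, *Ntf5* and the markers *Slc17a6*, *Rora* and *Calb2* were named after their values were seen. Some listed genes and 1 marker list are not reported here.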

Additional observations from a re-analysis of the deposited data

How the results depend on the processing

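Over 48 results of the 6 genes and 714 alternatives, none passed the threshold (2 had no adjusted *P*; the smallest was 0.197, *Ntrk3* for all KO against all WT with DESeq2), and 676 kept the direction. No paired analysis was possible because no animal number is shared between groups. The numbers of genes called by edgeR, and with DESeq2, no filter, the number term and (as a range) single libraries left out, were 4, 22, 272, 21 and 2 to 11 for KO-Veh against WT-Veh, 45, 245, 544, 20 and 6 to 266 for KO-Nut3 against KO-Veh, 0, 0, 249, 11 and 0 to 1 for WT-Nut3 against WT-Veh, 1, 7, 38, 1 and 0 to 7 for KO-Nut3 against WT-Nut3, and 1, 222, 416, 3 and 1 to 197 for KO-Nut3 against WT-Veh. They were 0, 1, 291, 0 and 0 to 1 for the interaction, 1, 43, 239, 10 and 1 to 10 for all KO against all WT, and 0, 79, 539, 3 and 0 to 19 for all Nutlin-3 against all vehicle. In one fit of 12 libraries KO-Nut3 against KO-Veh gave 0 and KO-Veh against WT-Veh 1, while KO-Nut3 against WT-Veh gave 2. KO-Nut3 against KO-Veh gave 19 with limma-voom and 34 with filterByExpr, and all KO against all WT 2 with limma-voom. The cause of these differences was not tested. With the number term the sign turned for *Bdnf* for KO-Veh against WT-Veh (-0.0571) and for *Ntf3* (0.000467), *Ngfr* (0.107) and *Sort1* (0.00835) for WT-Nut3 against WT-Veh. Leaving out single libraries gave log2 fold changes on both sides of 0 for *Bdnf* for KO-Veh against WT-Veh (-0.0284 to 0.14), KO-Nut3 against KO-Veh (-0.22 to 0.0125), all KO against all WT (-0.0908 to 0.00968), all Nutlin-3 against all vehicle (-0.0622 to 0.041) and KO-Nut3 against WT-Veh (-0.19 to 0.046). The same held for *Ntf3* for KO-Veh against WT-Veh (-0.16 to 0.0154), WT-Nut3 against WT-Veh (-0.18 to 0.0968) and the interaction (-0.22 to 0.0512), and for *Ntrk2* for KO-Veh against WT-Veh (-0.0465 to 0.0161), KO-Nut3 against KO-Veh (-0.0454 to 0.0217), all KO against all WT (-0.00866 to 0.0205), KO-Nut3 against WT-Nut3 (-0.00223 to 0.0593) and KO-Nut3 against WT-Veh (-0.0546 to 0.00445). It also held for *Ngfr* for WT-Nut3 against WT-Veh (-0.41 to 0.21) and all KO against all WT (-0.0717 to 0.28), *Sort1* for WT-Nut3 against WT-Veh (-0.0324 to 0.0403) and all KO against all WT (-0.0726 to 0.00339), *Ntrk3* for the interaction (-0.16 to 0.00189) and *Fos* for WT-Nut3 against WT-Veh (-0.13 to 0.89). With 27 to 69 counts per library, *Ngfr* has the widest intervals.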

Other observations

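With the group means as terms, a comparison chosen after the values were seen, 45 genes were called by edgeR between the 6 animals from RH9 and the 6 animals up to RH8 (37 higher and 8 lower, 0.199% of the genes tested) and 99 by DESeq2. The edgeR count moved to 3 without WT-Veh RH15, 10 without WT-Nut3 RH1, 13 without WT-Veh RH5 or KO-Veh RH7, 18 to 26 without KO-Nut3 RH13, KO-Veh RH16, WT-Nut3 RH14 or WT-Veh RH2, and 32 to 63 without each of the others. *Ngfr*, the p75NTR gene, was lower in the animals from RH9 by 0.67 on the log2 scale (log2 fold change -0.67, SE 0.16, unadjusted *P* = 0.00128 as against 9.54% of all genes with one under 0.05, adjusted *P* = 0.204, and 0.160 with DESeq2). The value lay between -0.72 and -0.59 when each library was left out. *Bdnf* was higher, with medians of 50.3 CPM from RH9 and 43.9 CPM up to RH8 (0.17, SE 0.07, adjusted *P* = 0.476), and the 2 ranges overlapped for both genes. *Ntrk2* (0.00475, SE 0.04), *Ntrk3* (0.07, SE 0.05) and *Sort1* (0.03, SE 0.06) differed less, and *Ntf3* by -0.20 (SE 0.12). *Pdgfrb*, a defining marker of mural cells, had the lowest unadjusted *P* of the listed genes after *Ngfr* (-0.28, SE 0.08, adjusted *P* = 0.250).

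*Ntf5*, the gene of NT-4, was at 1.55 CPM in KO-Nut3 RH6 and 0.879 CPM in KO-Nut3 RH13, and at 0.112 to 0.451 CPM in the other 10 libraries. KO-Nut3 RH8, at 0.115 CPM, lay among the latter, and the log2 fold change for KO-Nut3 against KO-Veh was 1.80 (SE 0.82, adjusted *P* = 0.664), and 1.04 (SE 0.84) without RH6. RH6 and RH13 were also among the 3 libraries with summed choroid plexus markers of 5201 CPM or more, and *Ntf5* in the third, WT-Nut3 RH9, was at 0.348 CPM. The part of choroid plexus tissue in these levels was not tested.

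Of the septal list, *Zic4* made up most of the sum, at 16.4 CPM in KO-Nut3 RH6, 12.8 in KO-Veh RH16, 12.3 in KO-Nut3 RH8 and 8.6 in KO-Nut3 RH13, and 2.1 to 5.5 CPM in the other 8. In the same order these libraries had *Ngfr* levels of 3.77, 1.54, 3.61 and 2.53 CPM, the highest, the lowest, the third and the sixth highest of the 12, and the part of septal tissue was not tested. The summed markers of the other lists ranged over the 12 libraries from 453 to 656 CPM for dentate granule neurons, 138 to 186 for CA2 and 297 to 392 for CA3 pyramidal neurons, 1047 to 1173 for interneurons, 4400 to 5503 for astrocytes, 3675 to 6282 for oligodendrocytes, 159 to 194 for their precursors, 248 to 314 for microglia, 214 to 274 for endothelium and 19.9 to 75.7 for ependyma.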
